A study of Mus musculus with 52 samples.

Results

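Long noncoding RNAs (lncRNAs) are transcripts that are not annotated as coding for a protein. The genes described here are the 127 lncRNA genes, of 4792 in the deposited table, whose mean level was 150 or more normalized counts over 32 mouse tumors. The table holds 27525 genes in all, of which 17647 are protein coding. Tumors were grown from KPC cells, a mouse pancreatic adenocarcinoma line whose alleles include Trp53 LSL.R172H/+ and Pdx1-Cre, injected under the skin of syngeneic male C57BL/6NHsd mice aged 8 to 10 weeks. The alleles of the line are shared by all groups, and since a single cell line was implanted the groups model that line in host tissue, not tumors that arise in the pancreas. Each of 4 groups held 8 individual tumors collected on day 14: untreated tumors, tumors injected 1 time with 2 µg of ADU-S100 (an agonist of the STING pathway), tumors of mice given 4 doses of 100 µg of an agonistic antibody to the lymphotoxin-β receptor (anti-LTβR), and tumors given both agents (combination). The controls received no isotype antibody.

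Values are the normalized counts of the table of these 32 tumors, which are not whole numbers. A second deposited table, of reads divided by a size factor for each library, holds 124 of the 127 genes, and the whole reads recovered from it per library ran from 12762453 to 15591986 (median 14932388). A log2 fold change is a difference of means of log2(normalized count + 1). A gene passed when limma's test gave an adjusted p-value (FDR, Benjamini-Hochberg over all genes tested) below 0.05. Gene positions are those of the table (mm39), and positions of miRNAs and promoter windows are GRCm38.p6. In bulk tumors a smaller share of cells of a type and less RNA per cell cannot be told apart. All 5 markers of epithelial tumor cells were found in every group, with sums from 15947 to 28939 normalized counts in untreated tumors and from 6829 to 14654 in combination tumors. The summed markers of skeletal muscle ran from 5368 to 333896 over the 32 tumors, and every group held tumors at both ends of that range.

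As background, lncRNAs act in several ways. Some, such as Neat1 and Malat1, stay in the nucleus, where Neat1 is the scaffold of paraspeckles and Malat1 gathers in nuclear speckles next to splicing factors. Others are precursors: miRNAs are cut from hairpins in the transcripts of genes such as Dnm3os and Mir142hg, and small nucleolar RNAs (snoRNAs), which guide the chemical modification of ribosomal RNA, are released from the introns of host genes such as Gas5 and the Snhg genes. The spliced host transcript of many snoRNA genes is short-lived because nonsense-mediated decay removes it, and many such genes begin with a tract of pyrimidines that links the translation of their mRNA to growth signals. A further group is imprinted, that is transcribed from the chromosome of 1 parent; H19, Meg3 and Rian are expressed from the maternal chromosome and are abundant in embryonic and mesenchymal cells.

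The members were chosen by their mean level over all 32 tumors, so the levels are a description. The members just inside it were Dnm3os (mean 155.7 normalized counts), AI504432 (151.7) and Gm11175 (150.4), and the lncRNA genes just outside it were 3300005D01Rik (149.8), Gm19589 (148.4) and 5530601H04Rik (146.5). Of the 127 members, 21 had no symbol in the table and are named by identifier, and all 127 passed the filter on low counts in every comparison. The class lncRNA is that of the table, and the GENCODE M21 annotation types Gm47283, Gm55594, AW011738 and Gm10134 as protein coding. A total of 4 members, Mir142hg, Dnm3os, AI504432 and Gm11175, reached the threshold only with the combination tumors included in the mean, and 1 member, AI504432, only with the anti-LTβR tumors included.

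Together the members held 0.684 ± 0.0336% (SD, n = 8) of all normalized counts of untreated tumors, and 0.669 ± 0.0455%, 0.693 ± 0.0537% and 0.740 ± 0.0581% of those of ADU-S100, anti-LTβR and combination tumors, so the ranges of the groups overlapped. Neat1 alone took 19.6% of the members' counts and the 10 highest members 54.0%. Over 32 tumors the mean was 21976 normalized counts for Neat1, 7650.0 for Malat1, 7485 for Mir100hg, 5649.6 for Norad and 3341 for Gas5. They were followed by ENSMUSG00000121500, ENSMUSG00000120992, H19, AI506816 and ENSMUSG00000121501. Long transcripts collect more reads, and per kilobase of exon the order was another: of the 100 members found in the GENCODE M21 annotation, 2410006H16Rik was highest with a level of 2787 normalized counts per kilobase, ahead of AW112010 with 1979, Gm10076 with 1905 and H19 with 1264, while Norad, Malat1, Neat1 and Gas5 had levels of 1149.5, 1096, 1058 and 889 per kilobase. Between tumors of a group the median coefficient of variation of the members was 16.7% for untreated tumors, 13.9% for ADU-S100, 11.4% for anti-LTβR and 13.6% for the combination. ENSMUSG00000121141 varied least among untreated tumors, at 3.84%, and A930016O22Rik most, at 122%.

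**Figure D1:**
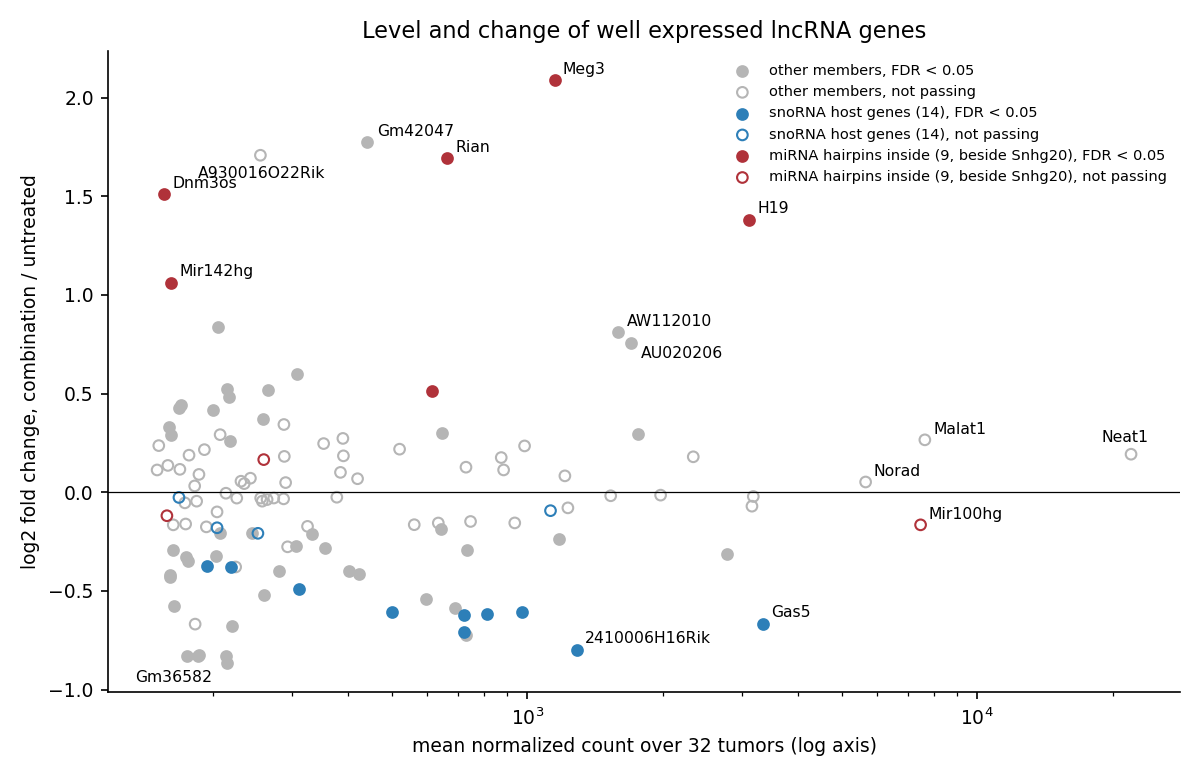
Each point is 1 of the 127 lncRNA genes, placed by its mean normalized count over 32 tumors (x, log axis) and by its log2 fold change between combination and untreated tumors (y); filled points passed an FDR of 0.05. The 14 snoRNA host genes other than Rian (blue) lie below 0, and the genes that passed with at least a doubling are Meg3, Gm42047, Rian, Dnm3os, H19 and Mir142hg.

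Of the 127 genes, 10 span miRNA hairpins, which gave 33 distinct mature miRNAs in RefSeq. The mature miRNAs were not measured in these libraries, which were made from polyadenylated RNA, and only the host transcripts have values. Mature sequences are shown for hosts described below, since the identity of the miRNA is what each of these loci is known for; capitals mark the seed, bases 2 to 8 from the 5′ end, with which a miRNA pairs to its targets. Among these 33, the only pair with a shared seed was miR-15a-5p and miR-16-5p of Dleu2.
miR-199a-5p: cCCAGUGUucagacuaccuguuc
miR-199a-3p: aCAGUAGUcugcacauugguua
miR-214-3p: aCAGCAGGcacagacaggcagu
miR-142a-5p: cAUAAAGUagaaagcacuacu
miR-142a-3p: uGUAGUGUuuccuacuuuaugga
miR-675-5p: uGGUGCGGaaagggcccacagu
miR-770-5p: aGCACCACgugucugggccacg
miR-370-3p: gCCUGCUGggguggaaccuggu
miR-22-3p: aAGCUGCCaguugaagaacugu
miR-15a-5p: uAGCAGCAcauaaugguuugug
miR-16-5p: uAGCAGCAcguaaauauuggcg
miR-100-5p: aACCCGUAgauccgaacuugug
miR-125b-5p: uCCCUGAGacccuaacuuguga
The sequences of miR-199a (chr1:162217844-162217866 for the 5p arm) and miR-214 (chr1:162223438-162223459) lie in Dnm3os, miR-142a (chr11:87756867-87756887) in Mir142hg, miR-675 (chr7:142577112-142577133, minus strand) in H19, miR-770 (chr12:109563710-109563731) in Meg3, miR-370 (chr12:109618305-109618326) in Rian and miR-22 (chr11:75463772-75463793) in Mir22hg. The miR-15a and miR-16 sequences (chr14:61632075-61632096 and chr14:61631936-61631957, minus strand) lie in Dleu2, and miR-100 and miR-125b (chr9:41531437-41531458 and chr9:41581940-41581961) in Mir100hg.

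A total of 14 members other than Rian span snoRNA genes in GENCODE M21. Gas5 holds 9 of them, Snhg1 8 and Snhg12 5, while 2410006H16Rik, Snhg17, Zfas1 and Snhg16 hold 3, 1110038B12Rik and Snhg5 hold 2 and the other 5 hold 1. Start sites of this class are known for a pyrimidine tract, so each RefSeq promoter window was searched for a run of 5 or more C or T that begins with C within 5 bases of the annotated start on the transcribed strand. The windows of 5 hosts with such a run are shown here from 25 bases before to 25 bases from the start (GRCm38.p6), with the run in capitals.
1110038B12Rik: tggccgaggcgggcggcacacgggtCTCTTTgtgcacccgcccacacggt
2410006H16Rik: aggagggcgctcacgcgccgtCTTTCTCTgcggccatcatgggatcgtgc
Gas5: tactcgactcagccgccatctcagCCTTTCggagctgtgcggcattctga
Snhg12: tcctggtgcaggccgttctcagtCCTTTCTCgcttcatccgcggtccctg
Snhg8: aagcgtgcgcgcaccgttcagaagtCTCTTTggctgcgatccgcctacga
These windows lie at chr17:34952444-34952493, − strand, chr11:62602852-62602901, + strand, chr1:161035141-161035190, + strand, chr4:132308653-132308702, + strand, and chr3:123508312-123508361, − strand. The run was found in 6 of 15 windows of the hosts (40.0%), in 21 of 72 windows of 61 members (29.2%) and in 18.3% of all 32817 windows. No such run was found at the annotated starts of Snhg1, Snhg5, Zfas1, Snhg15, Snhg16, Snhg17 and Snhg20.

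The comparison of combination with untreated tumors asks what both agents together changed. Of the 127 members 62 passed (48.8%), beside 43.2% of all 16909 genes tested. Of these, 23 were higher (18.1%, against 19.6% of all genes) and 39 lower (30.7%, against 23.6%) in combination tumors, and the median log2 fold change was −0.03 over the members and −0.02 over all genes. With each library centred on its median, 18 were higher and 43 lower. A change of at least 2-fold was found for 6 members (6.12% of all genes), all higher and 2 of them (Dnm3os and Mir142hg) members only through their level in combination tumors, where 5.16% of all genes passed with that rise and 0.952% with that fall. The values of the groups did not overlap for 3 higher and 10 lower members, where this held for 4.64% and 6.04% of all genes. The 1039 other lncRNA genes tested, which had lower levels, passed in 276 cases (26.6%), with 209 higher and 67 lower.

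Of the 4 imprinted RNAs among the members 3 rose (19.6% of all genes). Meg3 (chr12:109506879-109538165, + strand), a maternally expressed RNA of the Dlk1-Dio3 cluster, had 336, 531 and 1066 normalized counts as the lowest, median and highest of 8 untreated tumors, and 943, 2146 and 4899.5 in combination tumors. All but 1 of the combination tumors lay above every untreated tumor. Its mean was 2464 ± 1240.0 against 561 ± 245 (SD, n = 8; log2 fold change 2.09, SE 0.30, limma adjusted p = 6.7e-05). ADU-S100 and anti-LTβR tumors averaged 764 ± 392 and 812 ± 272, and neither differed from untreated tumors at the threshold (adjusted p = 0.457 and 0.122, limma). Rian (chr12:109570242-109628150, + strand), another gene of that cluster and the host of many box C/D snoRNAs, had 244, 370.2 and 549 normalized counts in untreated and 563, 1154 and 2083 in combination tumors, so the groups did not overlap (log2 fold change 1.69, SE 0.24, limma adjusted p = 6.11e-05).

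H19 (chr7:142129262-142131886, − strand), the maternally expressed RNA next to Igf2, had 875, 1212 and 3195 normalized counts in untreated and 1849, 3832 and 9825 in combination tumors. In 6 of 8 combination tumors it lay above every untreated tumor (log2 fold change 1.38, SE 0.35, limma adjusted p = 0.00442). Tumors treated with ADU-S100 held 1788, 3757 and 5138 and those treated with anti-LTβR 1000.3, 2607 and 4023, with no passing difference from untreated tumors (log2 fold changes 1.10 and 0.70, limma adjusted p = 0.276 and 0.15). Peg13 (chr15:72677449-72682173, − strand), which is expressed from the paternal chromosome, went from 653 ± 65.4 to 585 ± 47.0 normalized counts without passing (log2 fold change −0.16, 95% interval −0.30 to −0.01, limma adjusted p = 0.0718).

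Skeletal muscle RNA moved with H19 from tumor to tumor. Tumors fell into a lower and an upper set by the sum of 5 muscle markers (Acta1, Ckm, Myh4, Tnnt3, Myh1), at 5368 to 14142 and 55875 to 333896 normalized counts. Among untreated tumors H19 ran from 875 to 1228 in the 5 tumors of the lower set and from 2667 to 3195 in the 3 of the upper set, and among combination tumors from 1849 to 4059 in 3 and from 2935 to 9825 in 5 tumors. The combination tumors of the lower set thus lay above the untreated ones and those of the upper set overlapped with them, and with the muscle sum as a covariate the log2 fold change was 0.96 (limma adjusted p = 0.0025). None of the 5 muscle markers passed between these groups, but their median log2 fold change was 1.47 and their sum had medians of 8144 (untreated) and 94485 (combination) normalized counts. A930016O22Rik (chr7:19150426-19155342, − strand), chosen here after its values were seen, lies antisense to the muscle creatine kinase gene Ckm. Its level was 9.59 to 45.1 normalized counts in the 12 tumors of the lower set and 175 to 1155 in the 20 of the upper set, and from which strand its reads came is not known, because the strand setting of the counting is not stated.

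**Figure D2:**
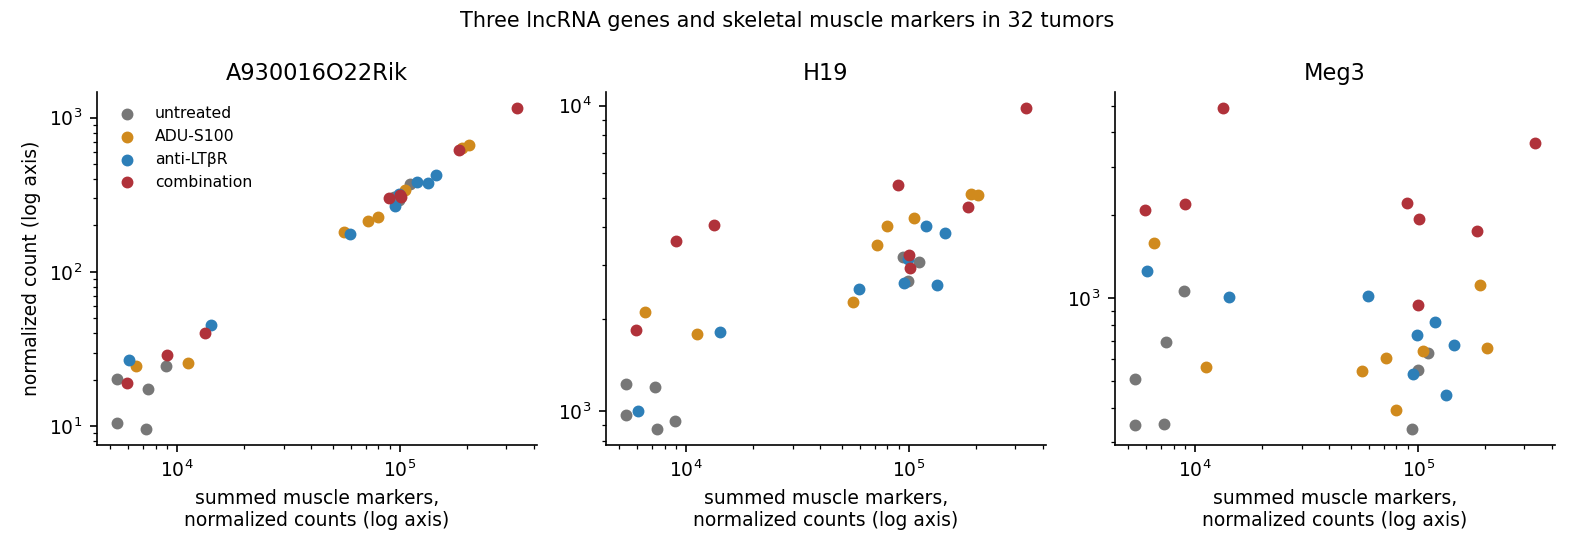
Normalized counts of A930016O22Rik, H19 and Meg3 (y, log axes) are plotted against the summed counts of 5 skeletal muscle markers (x, log axis) in the 32 tumors, coloured by group. A930016O22Rik and H19 are higher in the tumors with more muscle RNA, and the highest values of Meg3 are those of combination tumors at both ends of the muscle range.

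Other genes of imprinted loci were taken from a list of 17, of which 12 rose in combination tumors (19.6% of all genes), none fell and 5 did not pass (median log2 fold change 0.73). Cdkn1c, an inhibitor of the cell cycle, rose by 1.45, Mest by 1.73, Igf2r by 0.95 and Rtl1, the coding gene that lies between Meg3 and Rian on the opposite strand, by 1.40 on the log2 scale. Igf2 and Dlk1, the paternally expressed growth genes of the H19 and Meg3 loci, had log2 fold changes of 0.46 and −0.15 and did not pass (limma adjusted p = 0.0769 and 0.758). With anti-LTβR alone 3 of the 17 rose (7.21% of all genes) and 14 did not pass. The list includes Dcn, a gene of fibroblasts, and fibroblast markers moved with these RNAs: the sum of 5 such markers (Col1a1, Col3a1, Dcn, Lum, Pdgfra) ran from 67546 to 108164 normalized counts in untreated and from 120936 to 440612 in combination tumors, all 5 rose, and none passed with anti-LTβR alone. Markers of blood endothelium, summed to 1076 to 1586 in untreated and 1923 to 2748 in combination tumors, and of mural cells, summed to 4629 to 6862 and 6943 to 11596, rose too, 5 of 5 in each list. The part of these cells in the results was not tested.

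Among the miRNA hosts Dnm3os (chr1:162045192-162053119, + strand), which is transcribed antisense within Dnm3, had 76.7, 100.2 and 189 normalized counts in untreated and 144, 303 and 472 in combination tumors, and 7 of the 8 latter tumors exceeded all untreated ones (log2 fold change 1.51, SE 0.22, limma adjusted p = 8.15e-05). The gene around it, Dnm3, rose by 1.17 on the log2 scale. Mir142hg (chr11:87646399-87648102, + strand), the host of a miRNA known from blood cells, had 99.2, 119.6 and 147 in untreated and 202, 241 and 371 in combination tumors, and the groups did not overlap (log2 fold change 1.06, SE 0.12, limma adjusted p = 1.47e-05). Since both genes reached the level threshold only through the combination tumors, their rise was partly fixed by the choice of members, and without the 4 members of this kind 21 of 123 rose, 4 of them at least 2-fold, and 39 fell. Markers of several blood cells rose in this comparison. The T cell sum ran from 596 to 1474 normalized counts in untreated and from 1251 to 2323 in combination tumors, and all 6 markers rose (19.6% of all genes). The B cell sum ran from 77.7 to 266 and from 163 to 779, and 4 of 5 rose. Of macrophage and neutrophil markers 3 of 5 and 1 of 5 rose, while of mast cell markers 4 of 5 fell (23.6% of all genes) and 1 rose. The part of these cells in the level of Mir142hg was not tested.

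Mir22hg (chr11:75352365-75357502, + strand) rose from a mean of 554 ± 69.9 to one of 792 ± 108 normalized counts (log2 fold change 0.51, SE 0.09, limma adjusted p = 0.000311), and 7 of 8 tumors given both agents exceeded the untreated range. Pvt1 (chr15:61909817-62249945, + strand), which lies next to Myc, fell from 181 to 291 to 152 to 212 normalized counts (log2 fold change −0.33, SE 0.10, limma adjusted p = 0.0131), and Myc fell by 0.86 on the log2 scale. No difference passed for Dleu2 (243 ± 25.2 and 272 ± 22.7, limma adjusted p = 0.0708) or for Mir100hg, the third highest member by counts but not per kilobase (7502 ± 1369 and 6693 ± 1283; log2 fold change −0.17, 95% interval −0.44 to 0.11). Of the 10 members with miRNA hairpins inside, 6 rose and 5 of them at least 2-fold (19.6% and 5.16% of all genes), none fell and 4 did not pass. Meg3, Rian and H19 are among these 6, and so are Dnm3os and Mir142hg, which the combination tumors made members.

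Apart from Rian, which holds 13 snoRNA genes and rose by 1.69 on the log2 scale, the snoRNA hosts lay on the other side. All 14 had a lower mean log2 level in combination than in untreated tumors, 10 of them fell and the median log2 fold change was −0.55. Of all 16909 genes tested 8782 had a lower mean log2 level, 23.6% fell and the median was −0.02. Gas5 (chr1:160861992-160866116, + strand), known for its accumulation in growth-arrested cells, had 3203, 4035 and 5956 normalized counts in untreated and 2325, 2594 and 3077 in combination tumors, so the groups did not overlap (log2 fold change −0.67, SE 0.11, limma adjusted p = 0.000152). The largest fall among the hosts was that of 2410006H16Rik (chr11:62493650-62495725, + strand), with 1239, 1491 and 2474 against 754, 926 and 1209 and no overlap (log2 fold change −0.80, SE 0.13, limma adjusted p = 0.000201). Snhg12 (chr4:132035932-132038762, + strand) also separated the groups, with 462, 578 and 959 against 347, 390.0 and 461 (log2 fold change −0.61, SE 0.12, limma adjusted p = 0.000795).

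Snhg1 (chr19:8700801-8703811, + strand) had 684, 837 and 1403 normalized counts in untreated and 471, 569 and 708 in combination tumors, with an overlap of 1 combination tumor (log2 fold change −0.62, SE 0.13, limma adjusted p = 0.00132). The log2 fold changes of the other hosts that fell were −0.71 for Snhg5, −0.62 for 1110038B12Rik, −0.61 for Zfas1, −0.49 for Snhg8, −0.38 for Snhg16 and −0.37 for Snhg4, with limma adjusted p from 0.00102 to 0.0422. A second entry named Snhg4, classed as protein coding, overlaps the member on the same strand and did not pass (log2 fold change −0.18, limma adjusted p = 0.665). Snhg6, Snhg15, Snhg17 and Snhg20 did not pass, and for Snhg17, an abundant host with 1184 ± 214 and 1098 ± 125 normalized counts, the 95% interval of the difference was −0.33 to 0.14 on the log2 scale. Untreated tumor 4 had the highest level of its group for 13 of the 14 hosts and untreated tumor 8 for the other. Without tumor 4, 9 hosts still passed as lower, and over all alternatives 9 or 10 did; Snhg16 is the host whose call was lost most often, in 14 of 29 alternatives.

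**Figure D3:**
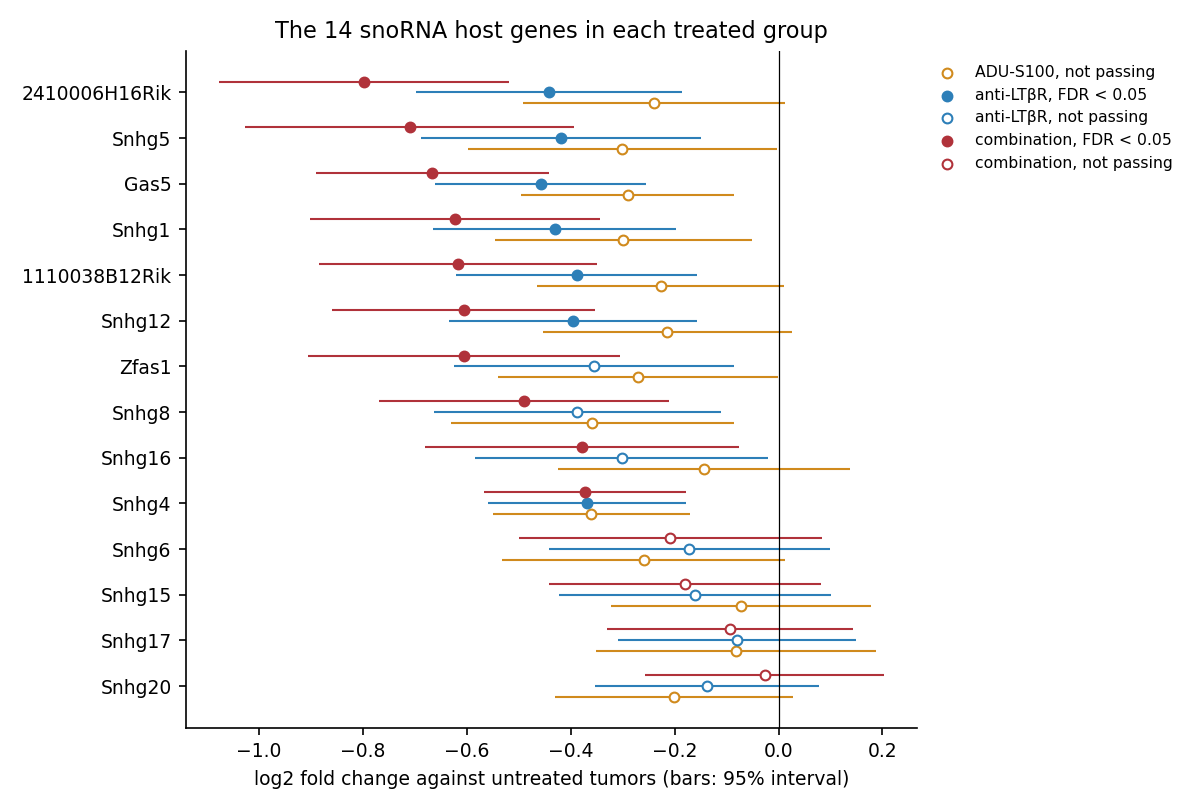
The log2 fold changes of the 14 snoRNA hosts other than Rian against untreated tumors (x, bars give the 95% interval) are drawn for ADU-S100, anti-LTβR and combination tumors, with filled points for an FDR below 0.05. The estimates of all 14 hosts lie below 0 in each of the 3 groups, which share the same 8 untreated tumors, and 0, 7 and 10 hosts passed.

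Genes that work with the snoRNAs were counted beside their hosts. In a list of 10 box C/D snoRNP genes, whose proteins bind these snoRNAs or assemble them, 7 fell in combination tumors (23.6% of all genes), none rose and 3 did not pass (median log2 fold change −0.31, and −0.02 over all genes). Fbl, the methyltransferase of the particle, had a log2 fold change of −0.29, Nop56 of −0.34 and Nop58 of −0.46, and all 3 passed. In a list of 12 genes of nonsense-mediated decay 7 fell (23.6% of all genes), none rose and 5 did not pass (median −0.15); Upf1, its central helicase, had −0.16 and Smg1, its kinase, had −0.05 and did not pass. Epithelial tumor cell markers moved with the hosts, with 3 of 5 lower and none higher in combination tumors and in anti-LTβR tumors alike. Their part in these results was not tested.

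The RNAs of nuclear bodies did not pass. Neat1 (chr19:5874736-5895898, − strand) had 18573, 20529.6 and 24888 normalized counts in untreated and 17616, 24907 and 30887 in combination tumors, with overlapping groups (log2 fold change 0.19, 95% interval −0.04 to 0.43, limma adjusted p = 0.176). The call for Neat1 depended on the setting: it passed without combination tumor 2 (log2 fold change 0.26) and with the muscle sum as a covariate (0.27). Malat1 (chr19:5845717-5852704, − strand) had 5462, 7009 and 10769 and 5413, 8889 and 16665 (log2 fold change 0.27, 95% interval −0.13 to 0.66, limma adjusted p = 0.262). Among 11 genes of paraspeckle proteins 1 rose and 7 fell (19.6% and 23.6% of all genes) and 3 did not pass, with log2 fold changes of −0.25 for Nono and −0.29 for Sfpq, both passing. Among 11 genes of nuclear speckle proteins 1 rose and 2 fell, beside the same shares of all genes, and 8 did not pass.

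Norad (chr2:156229980-156234921, − strand), which sequesters Pumilio proteins, averaged 5434 ± 434 normalized counts without treatment and 5623 ± 268 in combination tumors, with a 95% interval of −0.06 to 0.16 for the log2 fold change. The X-linked Firre and Ftx, the latter a neighbour of Xist, did not pass either, at 863 ± 88.0 and 933 ± 93.6 for Firre and 159 ± 18.6 and 147 ± 19.5 for Ftx. In a list of 11 genes of proteins that bind Xist 6 fell (23.6% of all genes), none rose and 5 did not pass.

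AW112010 (chr19:11021557-11033245, − strand), an RNA known from activated immune cells, had 936, 1149 and 1889.7 normalized counts in untreated and 1202, 2145 and 3154 in combination tumors, 4 of 8 being higher than any untreated tumor (log2 fold change 0.81, SE 0.19, limma adjusted p = 0.00268). Morrbid (chr2:128020239-128344685, − strand), known for its control of myeloid cell survival at the Bcl2l11 locus, fell from 746, 766 and 965 to 459, 544 and 597 with no overlap (log2 fold change −0.59, SE 0.07, limma adjusted p = 1.47e-05). Miat did not pass (155 ± 71.8 and 161 ± 49.1, 95% interval −0.42 to 0.69). Macrophage markers were summed to 10083 to 18527 normalized counts in untreated and to 13824 to 20992 in combination tumors, and 3 of 5 rose. Neutrophil markers were summed to 1934 to 7001 in untreated and 3377 to 19681 in combination tumors, with 1 of 5 higher and 4 not passing. Mast cell markers were summed to 569.6 to 1350.3 in untreated, 166 to 321 in anti-LTβR and 243 to 532 in combination tumors, with 4 of 5 lower than in untreated tumors in both treated groups and 1 of 5 higher in combination tumors. The part of these cells in the levels of Morrbid and AW112010 was not tested.

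Members for which no role is given here also differed. Gm42047 (chr8:122559986-122567917, + strand) had 97.7, 217 and 497 normalized counts in untreated and 326, 835 and 1322 in combination tumors, 6 of 8 being higher than any untreated tumor (log2 fold change 1.77, SE 0.40, limma adjusted p = 0.0021). AU020206 (chr7:75418786-75431869, − strand) separated the groups, with 1112, 1359 and 1423 against 1816, 2277 and 2594 (log2 fold change 0.76, SE 0.08, limma adjusted p = 7.48e-06). Gm10134 (chr2:28396107-28397785, + strand), which GENCODE M21 types as protein coding, and AI662270 (chr11:83114402-83117430, + strand) rose by 0.84 and 0.60 on the log2 scale. Among the members that fell, Gm36582 (chr6:135289153-135296559, − strand) had a log2 fold change of −0.87, G930009F23Rik, A830082K12Rik, Gm12349 and Gm42031 each of −0.83, Gm10076 of −0.72 and ENSMUSG00000119972 of −0.68. In G930009F23Rik, for example, untreated tumors had 153, 199.6 and 249 and combination tumors 85.3, 107 and 142 normalized counts, with no overlap. Gm42031 did not pass with only libraries above 14000000 reads (limma adjusted p = 0.0696).

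**Figure D4:**
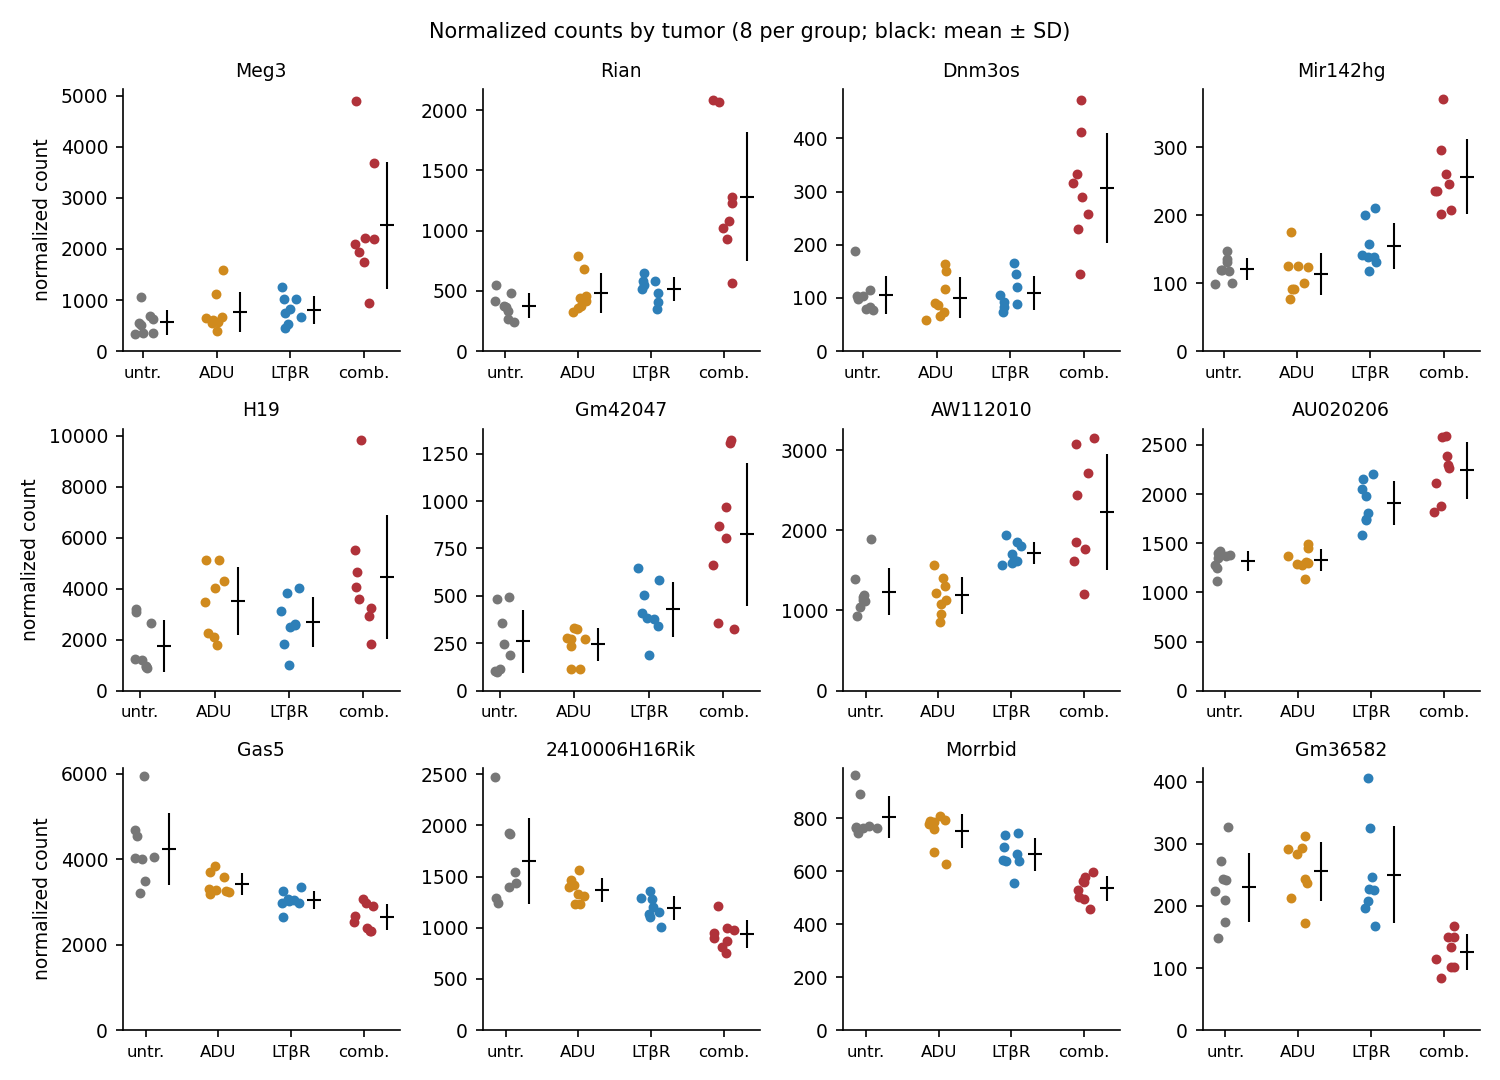
Each point is the normalized count of 1 tumor for 12 lncRNA genes in untreated, ADU-S100, anti-LTβR and combination tumors, and black marks give the mean ± SD of 8 tumors. Rian, Mir142hg, AU020206, Gas5, 2410006H16Rik and Morrbid show no overlap between untreated and combination tumors, and AU020206 and Morrbid none between untreated and anti-LTβR tumors.

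Position relative to coding genes was not used to choose the members. By the deposited positions, 47 members overlap a protein-coding gene, 36 of them on the opposite strand. Of 116 members whose nearest coding gene was tested, 58 passed between combination and untreated tumors, and for 28 of these the neighbour passed too, 25 in the same direction and 3 in the opposite one, where 45.2% of all protein-coding genes tested passed. Overlapping pairs passed together in 12 of 20 cases where the member passed, pairs within 10000 bases in 9 of 22 and pairs farther apart in 7 of 16. Where the gene spans overlap, reads of one may be counted for the other, because the strand setting of the counting is not stated. Beside Dnm3os and Dnm3, the pairs with the same direction included Mir142hg with Tspoap1 (1.68 for the neighbour), Gm10134 with Gbgt1 (1.00), A830082K12Rik with Nr2f1 (−0.70) and Gm36582 with Pbp2 (−1.16). Opposite directions were found for Zfas1 with Znfx1 (0.24), 1500015A07Rik with Afap1l1 (1.27) and B020010K11Rik with Mbp (0.92), whose coding neighbours rose.

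Between anti-LTβR and untreated tumors 20 of 127 members passed (15.7%), beside 15.3% of 16691 genes tested, with 8 higher (7.21% of all genes) and 12 lower (8.1%). None changed 2-fold (1.04% of all genes, 0.653% higher and 0.383% lower), and the groups did not overlap for 2 higher and 2 lower members (0.809% and 0.965% of all genes). AU020206 rose from 1112 to 1423 normalized counts to 1586 to 2203 (log2 fold change 0.53, SE 0.07, limma adjusted p = 0.000562). AW011738 also separated the groups (126 to 203 against 212 to 299; log2 fold change 0.46, SE 0.10, limma adjusted p = 0.00914), and its difference between combination and untreated tumors did not pass (limma adjusted p = 0.0615). AW112010 averaged 1714 ± 138 after anti-LTβR (log2 fold change 0.50, SE 0.11, limma adjusted p = 0.00873), 9530082P21Rik 254 ± 44.4 against 176 ± 29.7 in untreated tumors (log2 fold change 0.52, SE 0.12, limma adjusted p = 0.0116), and Dleu2 and Gm10134 rose by 0.22 and 0.41.

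Among the members lower after anti-LTβR, Gm10076 (791 to 1361 against 540.0 to 781 normalized counts; log2 fold change −0.57, SE 0.11, limma adjusted p = 0.00514) and Morrbid (746 to 965 against 554 to 746; log2 fold change −0.28, SE 0.07, limma adjusted p = 0.0138) separated the groups. Of the 14 snoRNA hosts 7 fell (8.1% of all genes; median log2 fold change −0.38), namely Gas5 (log2 fold change −0.46, SE 0.10, limma adjusted p = 0.00771), 2410006H16Rik, Snhg1, Snhg5, Snhg12, 1110038B12Rik and Snhg4. These calls changed when single libraries were left out and with the muscle sum as a covariate: 3 hosts passed without untreated tumor 1, 4 without anti-LTβR tumor 7, 10 without untreated tumor 3, 3 with only libraries above 14000000 reads and 1 with the muscle sum as a covariate, where the median was −0.31. Of the 20 members 11 passed without untreated tumor 1 and 12 without anti-LTβR tumor 7, and with the muscle covariate 11 passed, of which 9 were among the 20. The summed muscle markers had medians of 8144 normalized counts in untreated and 96969 in anti-LTβR tumors. Of the box C/D snoRNP genes 6 of 10 fell (8.1% of all genes) and 4 did not pass.

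The comparisons of combination and of anti-LTβR with untreated tumors share the untreated tumors. Side by side, the log2 fold changes were −0.67 and −0.46 for Gas5, 0.76 and 0.53 for AU020206, 2.09 and 0.57 for Meg3, and 1.51 and 0.05 for Dnm3os. Dnm3os is a member only through its level in combination tumors, and that choice favoured the contrast between its values.

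Between ADU-S100 and untreated tumors no member passed, and limma called 0% of 16613 genes tested; edgeR and DESeq2 on recovered reads called no member either. An unadjusted p below 0.05 was found for 16 members (12.6%), beside 14.5% of all genes, and the smallest adjusted p of a member was 0.276. The 14 snoRNA hosts had a median log2 fold change of −0.25, with Gas5 at 3425 ± 252 normalized counts in ADU-S100 and 4245 ± 845 in untreated tumors (95% interval −0.49 to −0.08). For A930016O22Rik, which had the largest estimate (1.80), the 95% interval was −0.17 to 3.77, and 6 of 8 ADU-S100 tumors but 3 of 8 untreated tumors were in the upper set by muscle markers.

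The tumors with both agents were also compared with those given either agent. Against ADU-S100 tumors 56 members passed (44.1%, beside 46.2% of 16811 genes tested), 22 higher (20.2% of all genes) and 34 lower (26%), or 15 and 42 with each library centred on its median. At least 2-fold changes were those of 5 higher members and 1 lower (6.17% of all genes, 5.46% higher and 0.714% lower), and the groups did not overlap for 5 higher and 9 lower members (5% and 6.96% of all genes). The largest rises were those of Gm42047, Meg3 and Rian, and of Dnm3os and Mir142hg, whose rise the level threshold favoured, with log2 fold changes from 1.18 to 1.70, and the largest fall that of Gm36582, from 172 to 312 to 84.3 to 167 normalized counts with no overlap (log2 fold change −1.03, SE 0.15, limma adjusted p = 6.17e-05). Neat1 passed in this comparison (17424 to 23168 against 17616 to 30887; log2 fold change 0.30, SE 0.11, limma adjusted p = 0.0306), and Malat1 did not (limma adjusted p = 0.0731). AU020206 separated the groups (1132 to 1495 against 1816 to 2594; log2 fold change 0.75, SE 0.08, limma adjusted p = 7.1e-06). Of the snoRNA hosts 8 of 14 fell (26% of all genes).

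Against anti-LTβR tumors 41 members passed (32.3%, beside 26.6% of 16932 genes tested), 14 higher (11.3% of all genes) and 27 lower (15.3%), or 17 and 21 with edgeR's TMM on recovered reads and 12 and 37 with each library centred on its median. With only libraries above 14000000 reads 13 passed. Meg3, Rian and Dnm3os, the last a member only through the combination tumors, were those that rose at least 2-fold (1.96% of all genes, beside 0.148% that fell so far and 2.11% in both directions), with log2 fold changes of 1.52, 1.23 and 1.46. Of the markers of fibroblasts, blood endothelium and mural cells, 5, 5 and 3 of 5 rose too (11.3% of all genes) and 0 fell, and the part of these cells was not tested. Gm36582, G930009F23Rik and A830082K12Rik were among 4 members that fell with no overlap between the groups (1.71% of all genes, and 1.45% higher), for example from 154 to 232 to 85.3 to 142 normalized counts in G930009F23Rik (log2 fold change −0.77, SE 0.12, limma adjusted p = 0.000738). Gas5, 2410006H16Rik, Snhg5 and Snhg12 were the 4 snoRNA hosts of 14 that fell (15.3% of all genes). The rise of Gm42047 (limma adjusted p = 0.0467) did not pass in 16 of 29 alternatives.

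The interaction of the agents asks whether the effect of ADU-S100 differed with anti-LTβR present and absent, in 1 fit of all 32 tumors. Of the 127 members 18 passed (14.2%), beside 18.4% of 17649 genes tested, 7 with a positive (7.33% of all genes) and 11 with a negative term (11%), or 9 and 8 with edgeR's TMM on recovered reads, 7 and 14 with centring and 7 and 17 with the muscle sum as a covariate. The smallest p was that of ENSMUSG00000121096 (chr11:98657199-98658572, + strand), with means of 161 ± 15.2, 137 ± 21.5, 159 ± 20.2 and 222 ± 37.4 normalized counts in untreated, ADU-S100, anti-LTβR and combination tumors (interaction 0.72, SE 0.14, limma adjusted p = 0.000962). Of the members that passed, Dnm3os showed the largest positive term (1.56, SE 0.32, limma adjusted p = 0.00178), with means of 106 ± 36.4, 101 ± 39.1, 109 ± 32.5 and 307 ± 103: the ranges of the first 3 groups, 76.7 to 189, 58.9 to 164 and 73.5 to 166, overlapped. Dnm3os and Mir142hg are members only through their level in combination tumors, so the sign of their terms was partly fixed by that choice. Of the markers of fibroblasts, blood endothelium and mural cells, 5, 4 and 3 of 5 passed with a positive term (7.33% of all genes) and 0 with a negative one. The part of these cells in the terms of the members was not tested.

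Mir142hg (0.85, limma adjusted p = 0.00447), Rian (0.91, 0.037) and Mir22hg (0.52, 0.00381) also had positive terms, and that of Meg3 did not pass (1.10, 95% interval 0.26 to 1.95, limma adjusted p = 0.0593). Mir22hg averaged 481 ± 62.9 normalized counts in ADU-S100 and 633 ± 63.6 in anti-LTβR tumors, on either side of the untreated mean of 554 ± 69.9. Of the members that passed, Gm36582 had the largest negative term (−1.14, SE 0.24, limma adjusted p = 0.00194), with means of 229.8 ± 55.4, 255 ± 47.9, 250.4 ± 77.9 and 125 ± 29.2. For G930009F23Rik, Gm30042 and Gm12349 the terms were −0.71, −0.70 and −0.64. Over the 14 snoRNA hosts the median interaction term was 0.07, and that of Gas5 was 0.08 (95% interval −0.16 to 0.33, limma adjusted p = 0.673).

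**Figure D5:**
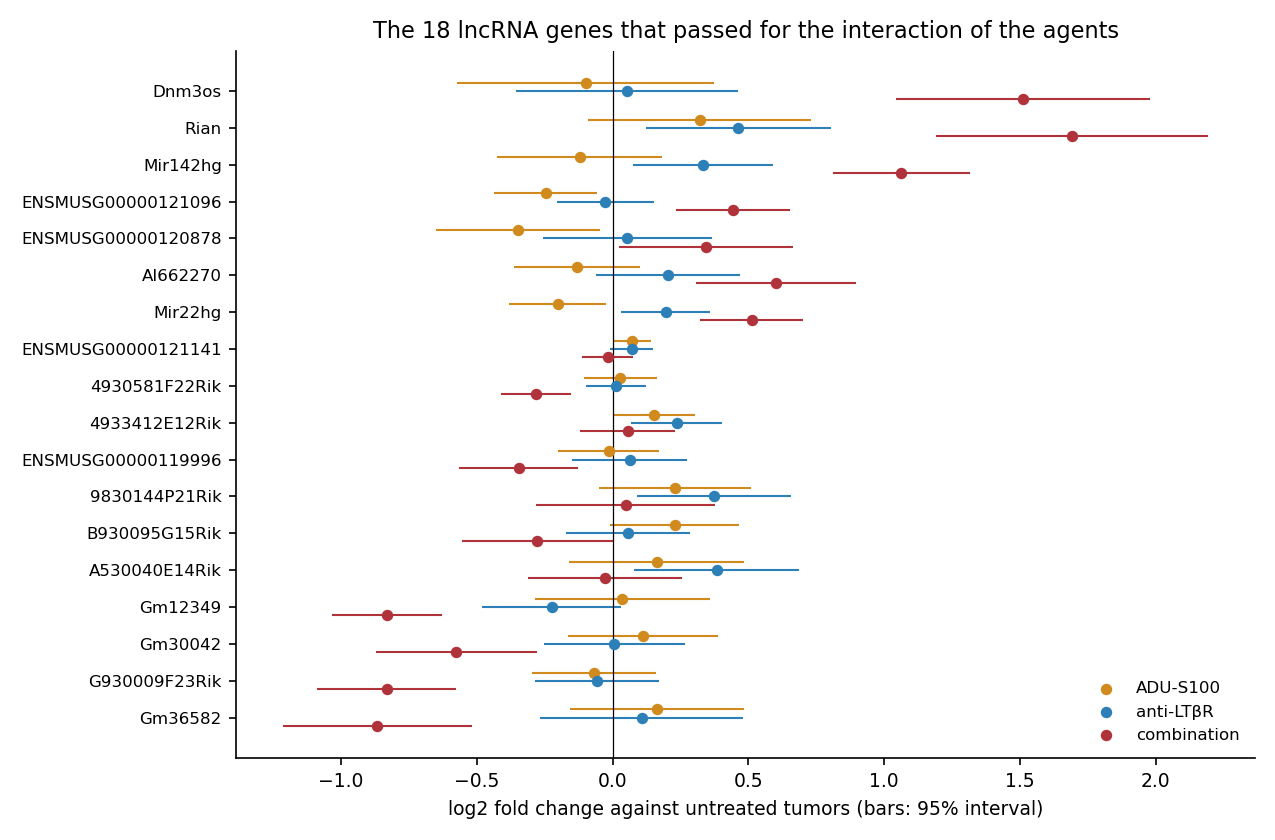
For the 18 lncRNA genes that passed for the interaction, the log2 fold changes of ADU-S100, anti-LTβR and combination tumors against untreated tumors are drawn (x, bars give the 95% interval), ordered by the interaction term. In Dnm3os, Rian and Mir142hg the combination estimate lies far above those of the single agents, and in Gm36582, G930009F23Rik and Gm12349 it lies below them.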

How the data were processed

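RNA of 32 individual KPC tumors was sequenced as stranded libraries of polyadenylated RNA. The authors deposited a signal for each gene and library, the normalized count, in a table of these 32 libraries, whose values are not whole, and in a larger one of 52 libraries and 27894 genes (26057 in both tables, with 124 of the 127 members). In the larger table the values are whole reads divided by 1 size factor per library, and depths, edgeR and DESeq2 rest on reads recovered from it. Trimming with cutadapt 1.9 and the build mm39 come from the submitters' processing notes. Of HISAT2 with StringTie and STAR in Partek Flow, which made each table was not settled, and the strand setting of counting is not given in the sources used here. The authors also deposited their own gene set enrichment (enrichment scores, p-values and FDR), which was not used. Per-sample columns left unused number 0. A further allele of the cell line is not reported here. The other experiment in the larger table has 20 libraries, of which 15 have labels that contradict each other, and it entered no comparison.

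Members were the lncRNA genes with a mean of 150 or more normalized counts over the 32 libraries. The members and all lists were chosen with earlier results of these data known. Groups came from the sample labels. Each comparison used limma 3.58.1 (R 4.3.3, trend) on log2(normalized count + 1) of its 16 libraries, the interaction all 32, after filterByExpr of edgeR 4.0.16 with a minimum of 10, with Benjamini-Hochberg adjustment over all genes. Fold changes on this scale understate those of genes with low counts. Alternatives were edgeR and DESeq2 1.42.0 on recovered reads (at least 99.887% of values whole in each library; 16 libraries have a step within 0.02 of 1, which cannot be told from rounding), other filters, pseudocount 0.1, centring, 1 fit of all groups, a block on the replicate number, deeper libraries only and leaving out each library. The sum of muscle markers as a covariate was added after seeing the data. In simulated data for combination against untreated tumors, 200 of 200 genes changed by 1.5 on the log2 scale were recovered. Among the 17157 genes tested there were 12 false calls. Recovery of smaller changes was not tested, and only 6 of the 62 members that passed in this comparison changed at least 2-fold.

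Named were the 10 members of highest level, those next to the threshold, the 10 members passing in each direction with the largest change in combination against untreated tumors and 5 in each other comparison, the 5 with the smallest interaction p, and all members of the role lists; 1110038B12Rik, A930016O22Rik, ENSMUSG00000121141, B020010K11Rik, 1500015A07Rik and single neighbours were named after their values were seen. Replicate numbers belong to different mice, so they were not used as pairs. Sequences are from RefSeq (GRCm38.p6); 61 members had a promoter window. Recovered reads of 12762453 to 15591986 per library set the depth, and intervals cover the spread between tumors.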

Additional observations from a re-analysis of the deposited data

Results flagged for a closer look

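A value that lay far from the other 7 of its group was found in 15 of 208 groups of the 52 named members (7.21%), where chance gives about 5%. Untreated tumor 4 was high for Snhg1 (1403 normalized counts, the next tumor at 1024), Snhg12 (959 and 677), Snhg6 (445 and 319), Snhg20 (261 and 186) and ENSMUSG00000119972 (351 and 275). Untreated tumor 3 was high for AI662270 (396 and 290.0) and Gm42031 (504 and 290.0), and untreated tumor 7 for Dnm3os (189 and 116). Among combination tumors, tumor 6 was high for H19 (9825 and 5504), tumor 2 for Pvt1 (212 and 176), and tumor 7 low for Snhg15 (136 and 182). Among anti-LTβR tumors, tumor 3 was high for ENSMUSG00000121500 (4308 and 3429) and tumor 2 for Gm11175 (295 and 181). Among ADU-S100 tumors, tumor 6 was high for ENSMUSG00000121096 (188 and 138) and tumor 2 for AI504432 (188 and 149). Combination tumor 6 is also the tumor with the highest sum of muscle markers, 333896 normalized counts.

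Of all 127 members 18 passed for the interaction of the agents (14.2%), beside 18.4% of 17649 genes tested. Among these 18 are 10 named members, 5 of which were named for their small interaction p. By this term, at an FDR of 0.05, the effect of ADU-S100 differed with anti-LTβR present and absent for these 10. The terms were positive for Dnm3os (1.56), Rian (0.91), Mir142hg (0.85), ENSMUSG00000121096 (0.72), AI662270 (0.53) and Mir22hg (0.52), and negative for Gm36582 (−1.14), G930009F23Rik (−0.71), Gm30042 (−0.70) and Gm12349 (−0.64). Dnm3os and Mir142hg are members only through their level in combination tumors, which favours a positive term.

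The 20 libraries of the other experiment, which no comparison used, hold reads of these genes. Of the 124 members in the larger table, 123 had more than 3 reads, the limit that a count of 0 allows, in at least 1 of these libraries, and 107 had at least 10 reads in all 20.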

How the results depend on the processing

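When 1 library was left out, combination against untreated tumors gave 55 to 62 members that passed, combination against ADU-S100 48 to 57, combination against anti-LTβR 29 to 43, the interaction 13 to 23 and ADU-S100 against untreated 0. Anti-LTβR against untreated ranged from 11 (without untreated tumor 1) to 24 (without untreated tumor 3), with 12 without anti-LTβR tumor 7. With only libraries above 14000000 reads, which leaves fewer tumors, it gave 11 and combination against anti-LTβR 13. The muscle covariate gave 11 for anti-LTβR against untreated, 8 higher and 3 lower; the cause was not tested. The level threshold sets the number of members, 194 at a mean of 100 and 58 at a mean of 300, of which 46.9% and 51.7% passed in combination against untreated. The split of the interaction calls, 7 positive and 11 negative, ranged from 7 and 17 (muscle covariate) to 11 and 8 (DESeq2). The replicate number as a block gave 59, 19, 0, 55, 44 and 17 members in combination, anti-LTβR and ADU-S100 against untreated, combination against ADU-S100 and anti-LTβR, and the interaction (9 and 8 by sign). No label ties same-numbered tumors to a shared mouse, and their deviations correlated from −0.53 to 0.63. For single named members no passing direction reversed. Leaving out 1 library kept the call in 1425 of 1472 values (34 lost, 6 gained) and other alternatives in 1085 of 1116 (14 lost, 12 gained). Lost most often were Snhg5 with anti-LTβR (12 of 29), Snhg16 in combination against untreated (14 of 29) and Gm42047 in combination against anti-LTβR (16 of 29). Neat1, Peg13, Dleu2 and AW011738 passed in combination against untreated tumors under some alternatives. With 8 tumors a group, a member that varied between tumors has a wide interval, such as that of −0.42 to 0.69 for Miat in combination against untreated tumors.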
